A study of Rattus norvegicus with 10 samples.

Results

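Under-developed testes of obese Zucker rats were compared with normally developed testes of obese Zucker rats. The sample titles placed 4 arrays in each group, so the comparison used 8 of the 10 arrays of the series. All of these samples, under-developed and normal, were labelled with the fa/fa model, in which the leptin receptor is mutated, with the obese phenotype, and as testes of sexually mature rats aged 14 weeks. The other 2 arrays, of normally developed testes of rats titled lean, carry the same fa/fa label; they entered the fit as a group of their own and are not described here. What made a testis count as under-developed was not given in the sources used here, and the labels call the samples biological replicates without saying whether any 2 testes shared a rat. The p-values therefore measure only the spread between these samples, which may be technical. Both groups share the fa/fa background and obesity, so the comparison is one of testicular development within obese rats.

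The testis makes sperm in seminiferous tubules. Spermatogonia divide by mitosis, spermatocytes pass through the long prophase of meiosis, round spermatids form the acrosome, and elongating spermatids replace their histones with transition proteins and then protamines. Sertoli cells nurse these stages and hold them by adhesion junctions, engulf dying germ cells and form the blood-testis barrier. Peritubular myoid cells wrap the tubule, and Leydig cells, macrophages and vessels lie between tubules. Germ cells make up most of a normal adult testis, and in RNA from whole tissue fewer cells of a type and less RNA per cell cannot be told apart.

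Values are RMA expression values on a log2 scale, on which a difference of 1 is a 2-fold difference. Unless stated otherwise, 4 values in a row are the differences of under-developed replicates 1, 2, 3 and 4, in that order, from the normal obese mean (4 arrays). The values of all probe sets lay between 2.28 and 14.0, and 18166 named genes were tested. With all arrays, limma called 0 genes at a Benjamini-Hochberg adjusted p under 0.05 (0% of genes), the smallest adjusted p was 0.0702, and 4425 genes were higher (24.4%) and 4045 lower (22.3%) at an unadjusted p under 0.05. These last counts were 1488 and 7418 with arrays centred on ribosomal protein genes, and 2855 and 2470 without under-developed replicate 1. Across the 18166 genes the difference had a median of 0.03, −0.02, 0.17 and −0.00. At least 2-fold higher than the normal mean were 15.5% of genes in replicate 1, 7.56% in replicate 2, 19.2% in replicate 3 and 0.0385% in replicate 4, and at least 2-fold lower were 15.6%, 6.18%, 16.8% and 0.0055%. Replicate 4 stood with the normal testes in these counts. Whether its label is right was not tested, and every fitted value, error, p and count of non-overlap over all 4 under-developed arrays includes it. A fit without it, as 1 of the fits that left out each array in turn, called 5381 genes higher (29.6%) and 4790 lower (26.4%); because that array stands apart by its values, calls without it describe replicates 1 to 3 and are not independent evidence about the group. Below, a gene is said to pass without replicate 4 where its limma adjusted p in that fit was under 0.05, and these shares are the background for every count of such genes. The under-developed arrays lay above all 4 normal obese arrays for 7.44% of genes and below all 4 for 10.4%. As a guide to the floor of the array, 1344 olfactory and vomeronasal receptor genes had a 95th percentile between 6.11 and 6.31. A value under this guide was not told from background, so a difference that reaches it is a lower limit of its size and differences among such values are not read. Of the 108 genes named here, 8 lay under it in all 8 arrays and 31 in some of them.

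**Figure D1:**
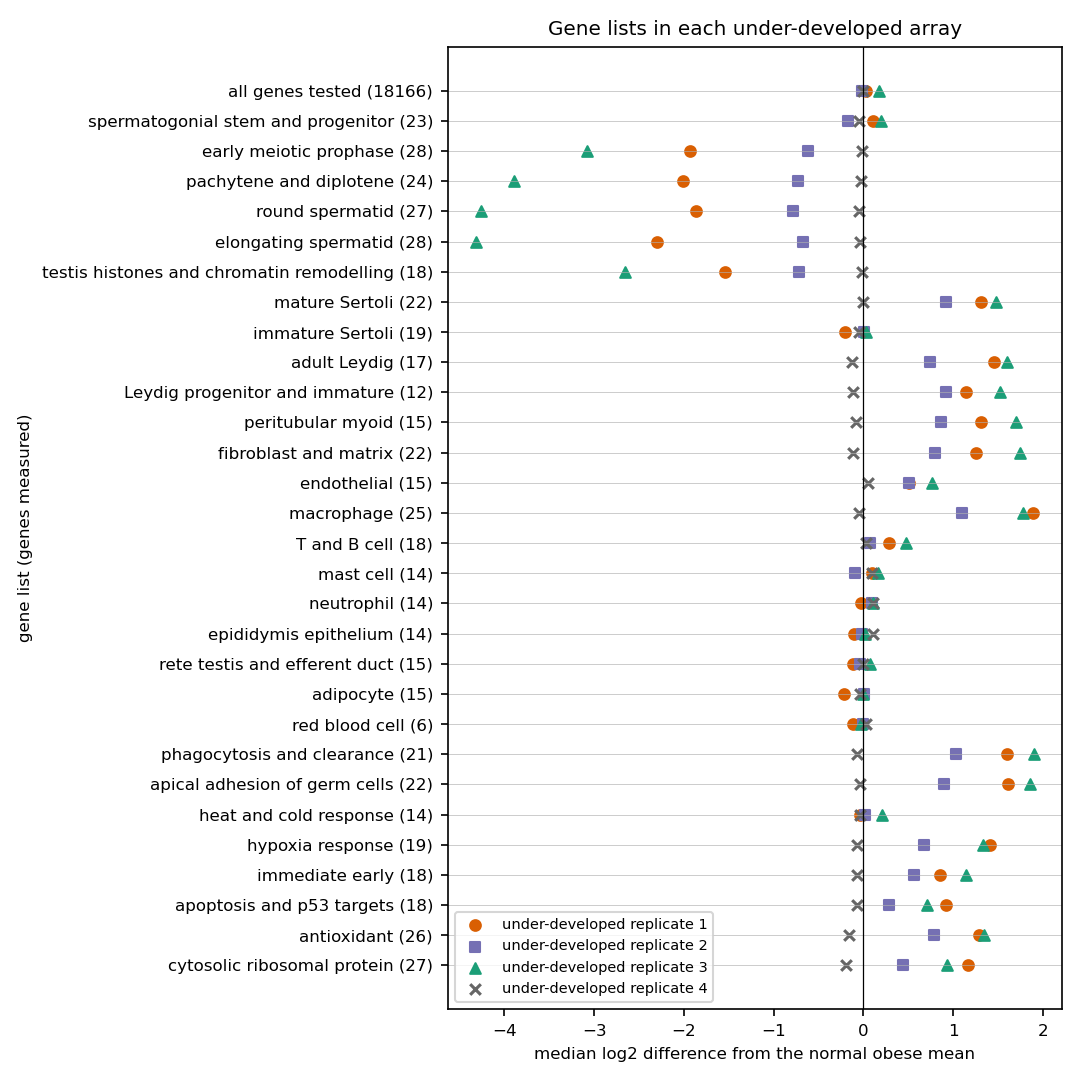
Median over the members of each gene list of the log2 difference from the mean of 4 normal obese arrays (horizontal axis), for each of the 4 under-developed arrays (symbols); the number of genes measured is beside each list. Germ cell lists from early meiosis on lie left of 0 and the Leydig, myoid, matrix, macrophage and hypoxia lists right of 0 in replicates 1 to 3, while replicate 4 lies within 0.19 of 0 in every list.

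From meiosis onward, germ cell genes were lower in under-developed replicates 1 to 3, and replicate 3 was the lowest. The list of early meiotic prophase, 28 of 31 genes measured, had median differences of −1.93, −0.62, −3.08 and −0.02, and 23 of its genes passed as lower and 0 as higher without replicate 4. The pachytene and diplotene list, 24 of 28 genes, had medians of −2.01, −0.73, −3.89 and −0.03 with 21 lower and 0 higher. Round spermatid genes, 27 of 29 measured, had medians of −1.87, −0.78, −4.26 and −0.05 with 23 lower and 0 higher, and elongating spermatid genes, 28 of 30 measured, −2.30, −0.67, −4.32 and −0.04 with 27 lower and 0 higher. Testis histone and chromatin remodelling genes, 18 of 24 measured, had medians of −1.54, −0.72, −2.66 and −0.02 with 14 lower and 0 higher. The mean level of the round spermatid list ran from 10.85 to 10.94 in the normal obese arrays and from 6.62 to 10.83 in the under-developed arrays.

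Among early meiotic genes, Stag3, a cohesin subunit that holds sister chromatids in meiosis, read 11.40, 11.36, 11.34 and 11.52 in normal obese replicates 1 to 4 and 8.99, 10.46, 7.12 and 11.52 in under-developed replicates 1 to 4. Replicates 1 to 3 lay below every normal array, and replicate 4 equalled the highest of them. Rec8, the meiotic cohesin kleisin, read between 9.80 and 9.94 in the normal arrays and 8.03, 8.59, 6.13 and 9.77 in the under-developed ones, so that the groups did not overlap. Its fitted difference of −1.72 ± 0.62 (SE) had a limma adjusted p of 0.073 with all arrays and of 0.00368 without replicate 4. Spata22, which acts in meiotic recombination, differed by −3.12, −1.30, −3.84 and −0.02. Dmc1, the meiotic strand exchange recombinase, chosen here after its values were seen, differed by −2.59, −0.86, −2.33 and −0.07. It read 6.18 in replicate 1 and 6.44 in replicate 3, near the floor guides of 6.11 and 6.2 in these arrays. The order of these 2 arrays is therefore not read. In the pachytene list, Mybl1, the transcription factor that switches on meiotic genes, differed by −1.78, −1.04, −2.38 and −0.03.

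The stages before meiosis did not move as one. The spermatogonial stem and progenitor list, 23 of 26 genes measured, had median differences of 0.11, −0.17, 0.20 and −0.05, with 3 genes higher (13%) and 6 lower (26.1%) without replicate 4, close to or below the shares over all genes. In the under-developed arrays and normal replicate 1, 7 to 10 of the 23 genes lay under the floor guide, which limits these medians. Gfra1, the GDNF co-receptor of stem spermatogonia, read 6.97, 7.0, 6.98 and 6.98 in the normal arrays and 6.57, 6.44, 6.90 and 6.75 in the under-developed arrays. The groups did not overlap, but the differences of −0.41, −0.54, −0.08 and −0.23 were smallest in replicate 3, the array with the lowest spermatid values. Id4, a regulator of stem cell renewal, differed by −0.37, −0.21, −0.02 and −0.23 and did not pass without replicate 4 (limma adjusted p = 0.163). Some members were lower where meiotic genes were: Tex14, which keeps the bridges between germ cells open, differed by −2.06, −0.72, −2.86 and −0.06, and Dazl, an RNA-binding protein of the germ line, by −1.08, −0.53, −3.02 and −0.03. On the scale centred on ribosomal protein genes the median of the spermatogonial list was −0.93, −0.71, −0.75 and 0.13, where the median of all genes was −1.01, −0.56, −0.78 and 0.17.

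Replicates 1 and 3 differed from each other mainly in genes that were lower in replicate 3. Between these 2 arrays, which need no normal array to be compared, 171 genes were at least 2-fold higher in replicate 3 (0.941%) and 1138 at least 2-fold lower (6.26%). Of the 27 round spermatid genes measured, 24 were at least 2-fold lower in replicate 3 than in replicate 1, with a median difference of −2.65 between the arrays; 10 of the 27 lay under the floor guide in replicate 3, which limits that median. This count was 18 of 28 elongating spermatid genes (median −1.82), 14 of 24 pachytene and diplotene genes (median −1.61) and 13 of 28 early meiotic genes (median −0.88). Under the guide in replicate 3 lay 2 of the 28 elongating, 4 of the 24 pachytene and 12 of the 28 early meiotic genes. In replicate 1, 8 of the 28 early meiotic genes already lay under it. The floor thus limits the lists unequally, and the order of their medians is not read. Single arrays have no replicate, so these differences were not tested.

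Acrv1, which encodes an acrosomal protein of round spermatids, was named for its difference between replicates 3 and 1. It read 11.92, 12, 11.92 and 11.99 in the normal obese arrays and 10.80, 11.47, 5.65 and 11.94 in the under-developed arrays. Replicate 3 stood far below all other arrays and under the floor guide, so that its difference of −6.30 from the normal mean is a limit, while replicates 1 and 2 differed from that mean by −1.16 and −0.49. Spam1, the sperm hyaluronidase, read 11.80, 11.86, 11.96 and 11.94 in the normal arrays and 10.79, 11.50, 5.82 and 11.94 in the under-developed arrays, the same order, and was also under the guide in replicate 3. The testis glycerol kinase gene Gk2 differed by −1.34, −0.35, −5.31 and −0.02, the flagellar tektin gene Tekt2 by −1.61, −0.66, −5.68 and −0.07, and the CatSper sperm calcium channel gene Catsperz, under the guide in replicate 3, by −1.58, −0.25, −5.67 and −0.16. The testis lactate dehydrogenase gene Ldhc differed by −1.50, −0.26, −4.58 and −0.04. Of these 6 genes, Tekt2 passed without replicate 4 (limma adjusted p = 0.0457), Ldhc did not (0.0545), and Acrv1 and Spam1 had adjusted p of 0.0842 and 0.0908.

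Other spermatid genes were already far below normal in replicate 1. Of those that follow, Prss59, Wdr64, Garin4 and Asb17 lay under the floor guide in replicate 3, which limits how far replicates 1 and 3 could differ; Tnp2, Fscn3, Oxct2b and Spata32 lay above it in both. Prss59, a serine protease gene, read 11.31, 11.44, 11.38 and 11.33 in the normal arrays and 6.34, 9.88, 5.01 and 11.39 in the under-developed arrays. Fscn3, an actin-bundling gene of spermatid heads, read 11.29, 11.20, 11.10 and 11.17 against 6.90, 9.45, 6.37 and 11.21. Oxct2b, the germ cell form of a ketone body enzyme, differed by −4.30, −1.89, −4.91 and −0.07. Tnp2, the transition protein that precedes the protamines on spermatid DNA, read 12.43, 12.47, 12.48 and 12.40 in the normal arrays and 8.37, 11.85, 8.15 and 12.33 in the under-developed arrays. Replicate 3 minus replicate 1 was −0.22 for Tnp2 and −5.14 for Acrv1. In replicate 2, the differences of Prss59, Fscn3 and Oxct2b from normal were −1.49, −1.74 and −1.89, and those of Acrv1, Spam1, Gk2 and Catsperz lay between −0.49 and −0.25. Tnp2 (−0.60) and Tekt2 (−0.66), from different patterns, lay close together there. Prss59, Fscn3 and Oxct2b were named for low medians of the 4 differences. Acrv1, Spam1 and Catsperz were named for being lower in replicate 3 than in replicate 2. These rules shape the contrast in replicate 2, so it is not read. With all arrays the fitted differences were −3.21 ± 1.22 (SE) for Prss59, −2.27 ± 0.91 for Tnp2 and −1.99 ± 1.19 for Acrv1, with limma adjusted p of 0.0776, 0.0861 and 0.211. Wdr64, Garin4 and Spata32, testis genes with differences of −4.50, −1.99, −5.64 and 0.07, of −3.93, −1.99, −4.25 and −0.07 and of −4.56, −1.51, −5.64 and 0.03, had the same order of arrays. Asb17, a testis gene of the ankyrin repeat and SOCS box family, differed by −4.12, −1.70, −6.30 and −0.08.

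**Figure D2:**
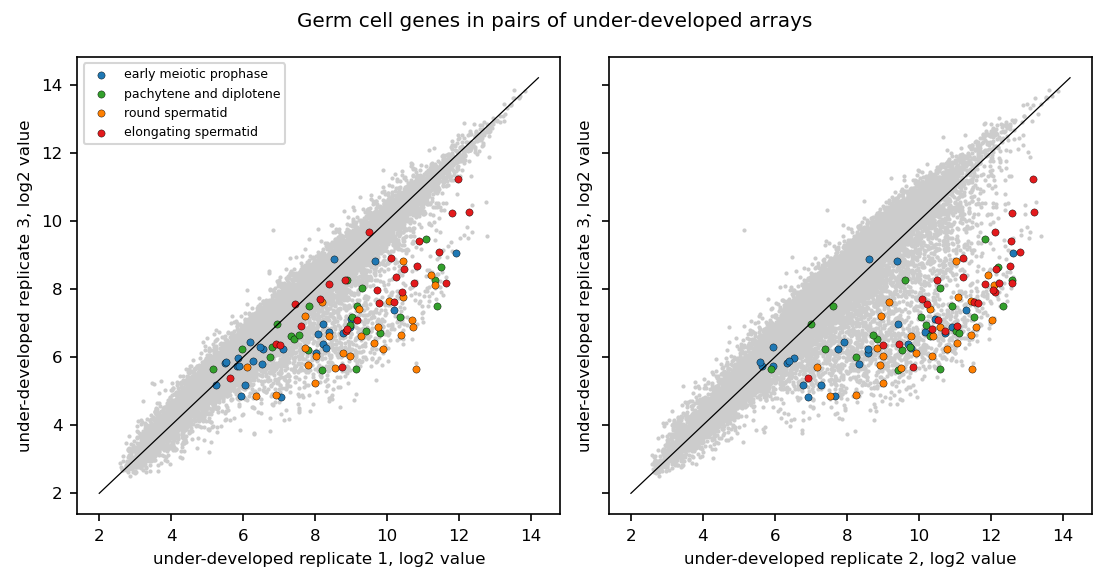
Log2 value of every gene (grey) in under-developed replicate 3 against replicate 1 (left) and replicate 2 (right), with the members of 4 germ cell lists coloured; the line marks equal values. On the left, 24 of 27 round spermatid genes lie at least 2-fold below the line, and the same lists lie farther below it on the right.

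The sequences before the transcription starts of genes from both patterns, Gk2 and Tekt2 against Tnp2, are shown because the motif content of such genes was compared. Tnp1 differed by −1.41, −0.21, −2.15 and −0.04. It was not far below normal in replicate 1 and is shown only as the other transition protein gene. For Gk2 and Tekt2, less low in replicate 1 than in replicate 3, and for Tnp2 and Tnp1, transition protein genes, 250 bases before the RefSeq transcription start of assembly GRCr8 are given 5′ to 3′ on the strand of the gene. Capitals mark exact matches on either strand to the RFX motif GTTGCC, the MYB letters CAGTTG or the cyclic AMP response element TGACGTCA, and the first 2 motifs can overlap as CAGTTGCC. These stretches lie at chr14:12410827-12411076 on the plus strand, chr5:143907725-143907974 on the minus strand, chr10:5386485-5386734 on the plus strand and chr9:82044279-82044528 on the minus strand.
Gk2: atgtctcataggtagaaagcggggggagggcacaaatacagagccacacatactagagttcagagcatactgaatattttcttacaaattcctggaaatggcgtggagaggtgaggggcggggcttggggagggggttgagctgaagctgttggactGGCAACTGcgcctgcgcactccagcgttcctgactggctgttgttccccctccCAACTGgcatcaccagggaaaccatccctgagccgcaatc
Tekt2: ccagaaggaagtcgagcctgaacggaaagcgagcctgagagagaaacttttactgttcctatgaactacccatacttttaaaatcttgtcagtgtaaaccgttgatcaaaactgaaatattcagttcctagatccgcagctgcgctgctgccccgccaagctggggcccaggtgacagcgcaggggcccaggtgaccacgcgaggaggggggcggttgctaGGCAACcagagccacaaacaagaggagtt
Tnp2: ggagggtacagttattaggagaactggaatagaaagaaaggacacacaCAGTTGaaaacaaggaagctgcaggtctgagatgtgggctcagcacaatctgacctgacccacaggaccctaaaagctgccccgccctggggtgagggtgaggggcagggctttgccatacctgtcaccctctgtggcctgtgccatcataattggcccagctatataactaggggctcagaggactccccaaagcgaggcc
Tnp1: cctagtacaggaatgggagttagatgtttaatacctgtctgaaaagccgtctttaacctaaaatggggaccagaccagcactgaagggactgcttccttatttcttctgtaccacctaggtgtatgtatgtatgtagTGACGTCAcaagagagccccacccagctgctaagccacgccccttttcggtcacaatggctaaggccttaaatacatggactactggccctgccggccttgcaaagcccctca
In Gk2 the RFX motif begins 93 bases before the start and overlaps a MYB match at 91, with a second MYB match at 40. Tekt2 holds an RFX motif at 29, Tnp2 a MYB match at 202, and Tnp1 the cyclic AMP response element at 113.

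Over all 14503 promoters (250 bases before to 50 after the start), the RFX motif was found in 12.2%, CAGTTG in 11.9% and TGACGTCA in 2.42%, at a median GC content of 57.3%. Among the 160 genes at least 8-fold lower in replicate 3 than in replicate 1, 139 had a promoter; 28.1% held the RFX motif, 29.5% CAGTTG and 0.719% TGACGTCA, at a median GC content of 51%. Among the 153 genes at least 8-fold lower in replicate 1 than in the normal testes, 134 had a promoter, and the shares were 13.4%, 13.4% and 2.99%, at 52.7% GC. Of the 1097 genes at least 8-fold lower in replicate 3 than in the normal testes, 925 had a promoter. Their shares were 21.4%, 18.3% and 2.49%, at 53.7% GC. Genes passing as lower without replicate 4 had shares of 16.2%, 13.7% and 3.42%, and genes passing as higher 10.5%, 10.2% and 2.37%. The letters CAAGGTCA of steroidogenic factor 1 sites stood in 1.04% of all promoters and 0.813% of those of genes passing as higher, and the PU.1 letters AGGAAGTG in 3.41% and 4.32%. These shares are descriptions without a test, and a match to letters is not a bound site.

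Germ cells replace some widely expressed genes by paralogues or retrogenes of their own, a replacement usually linked to the silencing of the X chromosome in meiosis. Of 30 such pairs looked for, 18 were measured. In 12 of the 18 the widely expressed gene was higher and its germ cell partner lower in each of replicates 1, 2 and 3, and this held for all 6 pairs whose first gene is X-linked; with arrays centred on ribosomal protein genes it held for 9 of the 18 and 4 of the 6. Within each of these 3 arrays, the difference of the widely expressed gene exceeded that of its partner in 16 pairs, a comparison that centring cannot change. Without replicate 4, 12 widely expressed members passed as higher and 2 as lower, and 16 germ cell members passed as lower and 0 as higher. Pdha1, the X-linked pyruvate dehydrogenase subunit, read 7.61, 7.58, 7.26 and 7.05 in the normal arrays and 10.12, 9.27, 9.97 and 7.08 in the under-developed arrays; Pdha2, its germ cell retrogene, read 10.62, 10.66, 10.58 and 10.62 and then 7.81, 9.52, 6.21 and 10.55. Replicates 1 to 3 lay above the normal arrays for Pdha1 and below them for Pdha2. Cetn2, an X-linked centrin, differed by 1.75, 1.09, 1.87 and 0.15, and its retrogene Cetn1 by −2.12, −0.57, −4.40 and −0.20. The normal values of Cetn2 lay under the floor guide, so its differences in replicates 1 to 3 are lower limits. Timm8a1, a mitochondrial import gene, differed by 2.22, 1.04, 2.01 and −0.16, and Timm8a2 by −2.52, −1.04, −2.86 and −0.16. The X-linked cohesin gene Smc1a differed by 1.31, 0.87, 1.95 and −0.04, and its meiotic form Smc1b by −1.49, −0.36, −4.32 and −0.02. Pgk1 and Pgk2, the glycolytic phosphoglycerate kinases, differed by 1.26, 0.51, 1.19 and −0.07 and by −1.97, −0.66, −5.06 and −0.05. Glycerol kinase, Gk, differed by 0.96, 0.55, 0.75 and −0.21. Its normal values lay under the floor guide, so the differences in replicates 1 to 3 are lower limits. Its fitted difference was −0.07 with ribosomal protein centring.

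Pairs that are not X-linked went the same way or not. Slc2a1, the widespread glucose transporter, differed by 1.17, 0.90, 1.39 and −0.12, and Cox8a, a cytochrome oxidase subunit, by 1.84, 1.26, 2.24 and −0.12 against −2.15, −0.29, −4.35 and −0.10 for the germ cell form Cox8c. Tbp, the TATA-binding protein, is abundant in spermatids, and both it (−1.33, −0.53, −2.68 and 0.00) and its relative Tbpl1 (−1.02, −0.26, −2.63 and −0.00) were lower. Aurkb and Aurkc, kinases of mitosis and meiosis, were both lower too (−1.66, −1.01, −2.78 and −0.24; −2.22, −0.80, −1.93 and 0.03). Oxct1, the widespread counterpart of Oxct2b, ranked next to Testin by the median of the 4 differences and read 6.18, 6.0, 5.75 and 5.46 in the normal arrays and 10.72, 9.60, 10.45 and 5.72 in the under-developed arrays. Its values in the normal arrays and in replicate 4 lay under the floor guide. Over the 706 X-linked genes the median difference was 0.27, 0.13, 0.35 and −0.01, and over 17346 autosomal genes 0.02, −0.02, 0.16 and −0.00; single autosomes ranged from −0.04 to 0.11, −0.10 to 0.04, 0.09 to 0.25 and −0.03 to 0.01. With ribosomal protein centring, which leaves the gap between them as it is, the X-linked medians were −0.77, −0.41, −0.60 and 0.16 and the autosomal medians −1.02, −0.56, −0.79 and 0.17. Of the X-linked genes 41.1% passed as higher and 18.7% as lower without replicate 4, against 29.2% and 26.7% of autosomal genes.

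**Figure D3:**
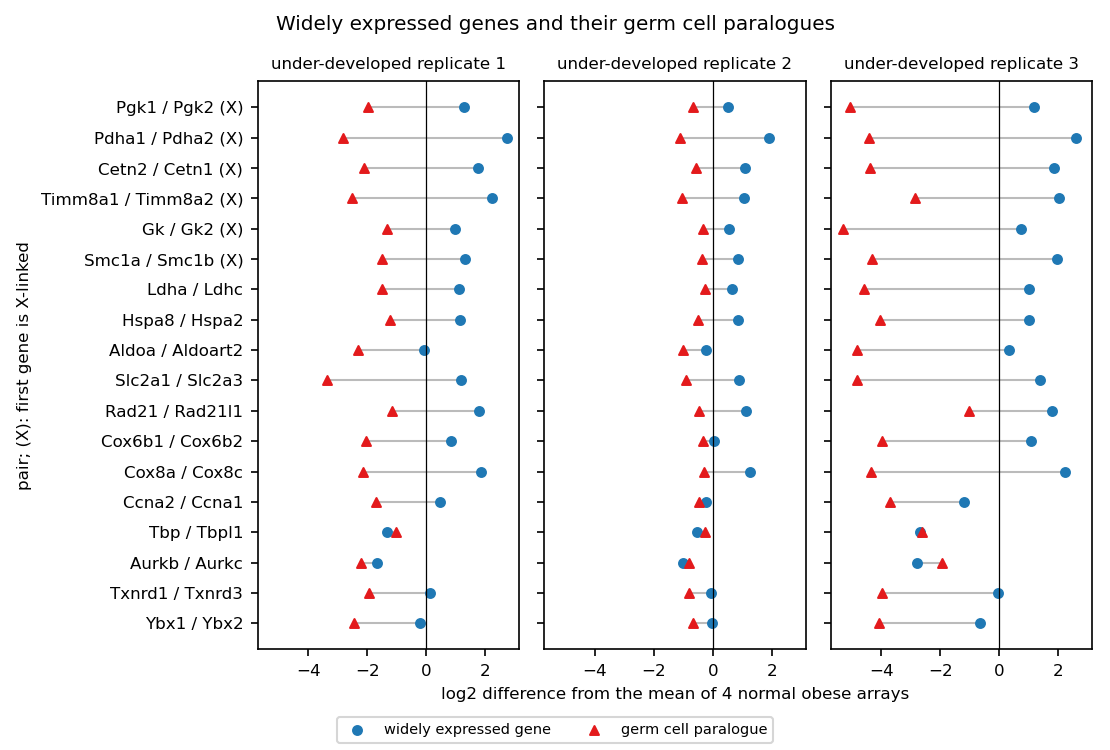
Log2 difference from the mean of 4 normal obese arrays (horizontal axis) for 18 pairs of a widely expressed gene (circles) and its germ cell paralogue (triangles), in under-developed replicates 1, 2 and 3. In the 6 pairs marked X every circle lies right of 0 and every triangle left of 0.

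Mature Sertoli cell markers were higher as a list in replicates 1 to 3, while the immature list was limited by the floor of the array. The mature Sertoli list, 22 of 27 genes measured, had medians of 1.31, 0.92, 1.48 and −0.01, with 15 higher and 2 lower without replicate 4. The immature Sertoli list, 19 of 20 genes, had medians of −0.20, 0.01, 0.03 and −0.05, with 5 higher and 5 lower. In the under-developed arrays and normal replicate 1, 9 to 11 of these 19 genes lay under the floor guide. For the 22 mature genes this count was 0 to 3. The immature medians are limited by this, so the gap between the 2 lists is not read. Testin, a Sertoli cell protein of the cathepsin family that is secreted at junctions with germ cells, had the highest median of the 4 differences of all genes. It read 6.44, 6.79, 5.68 and 5.14 in the normal arrays and 12.09, 11.43, 12.21 and 5.53 in the under-developed arrays. Replicates 1 to 3 stood far above every normal array, and replicate 4 lay among the normal arrays. The fitted difference with all arrays was 4.30 ± 1.34 (SE; limma adjusted p = 0.0702). Clu, the Sertoli chaperone clusterin, read 12.64, 12.63, 12.61 and 12.53 against 13.67, 13.53, 13.64 and 12.68, so that even replicate 4 lay just above the normal arrays. Among immature markers, Amh, the hormone of fetal and prepubertal Sertoli cells, read between 5.31 and 5.74 in all 8 arrays, under the floor guide in each, so that no difference is read from it. The proliferation gene Mki67, which dividing germ cells also express, differed by −1.78, −0.97, −3.02 and 0.01, and the tubulin regulator Stmn1 by −1.21, −0.54, −2.61 and −0.09. Thra, the thyroid hormone receptor gene, was higher in all 4 (1.63, 1.20, 2.50 and 0.20), and Id3, a differentiation inhibitor, differed by 1.37, 1.10, 1.74 and −0.19.

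Genes by which Sertoli cells hold and clear germ cells had higher medians in replicates 1 to 3. Apical adhesion genes, 22 of 23 measured, had medians of 1.61, 0.90, 1.86 and −0.04, with 17 higher and 1 lower without replicate 4. The gene passing as lower was Nectin3, the nectin on the germ cell side of the junction, which read 11.64, 11.66, 11.67 and 11.71 in the normal arrays and 9.75, 10.80, 7.55 and 11.59 in the under-developed arrays, with no overlap. Its Sertoli cell partner Nectin2 differed the other way, by 1.90, 1.29, 2.07 and −0.25. Cdh2, N-cadherin, differed by 2.61, 1.79, 2.67 and −0.16, Itgb1, an integrin, by 2.59, 2.08, 2.71 and −0.08, and Cttn, an actin regulator at these junctions, by 2.42, 1.90, 2.68 and 0.02. Phagocytosis and clearance genes, 21 of 25 measured, had medians of 1.60, 1.03, 1.90 and −0.07, with 17 higher and 0 lower. Abca1, which exports cholesterol, read 7.52, 7.55, 7.60 and 7.63 against 11.24, 10.68, 11.67 and 7.32. Among the receptors for dying cells, Axl differed by 1.94, 1.50, 2.35 and 0.21, Tyro3 by 1.98, 1.02, 2.08 and −0.09, and Mertk by 1.06, 0.40, 1.47 and 0.08. The lysosomal proteases Ctsb (2.89, 2.44, 3.06 and −0.03) and Ctsd (2.51, 1.85, 2.85 and −0.09) and the engulfment gene Elmo1 (2.84, 2.16, 3.01 and 0.19) were higher in replicates 1 to 3. Macrophages carry many of these genes too; the mean of the macrophage list was 6.54 to 6.90 in normal and 6.66 to 8.37 in under-developed arrays, and its part in these values was not tested.

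In the interstitium, adult Leydig genes, 17 of 20 measured, had medians of 1.45, 0.74, 1.60 and −0.13, with 12 higher and 0 lower without replicate 4. Leydig progenitor and immature genes, 12 of 17 measured, had medians of 1.14, 0.92, 1.52 and −0.12, with 9 higher and 0 lower. Pdgfra, a growth factor receptor of the Leydig lineage, read 8.68, 8.44, 8.69 and 8.18 in the normal arrays and 11.25, 10.78, 11.70 and 8.26 in the under-developed arrays. Akr1c14, which reduces androgens in immature Leydig cells, differed by 3.03, 1.93, 2.75 and −0.18, Soat1, which esterifies cholesterol, by 2.54, 1.96, 2.70 and −0.07, and Nr2f2, a transcription factor of Leydig stem cells, by 1.61, 1.10, 1.79 and −0.24. Vcam1, an adhesion gene counted with adult Leydig cells, differed by 2.72, 1.93, 2.54 and −0.13. Peritubular myoid genes, 15 of 17 measured, had medians of 1.31, 0.86, 1.70 and −0.08 with 13 higher and 0 lower, and fibroblast and matrix genes, 22 of 25 measured, 1.25, 0.80, 1.74 and −0.12 with 17 higher and 1 lower. Myh11, smooth muscle myosin, differed by 1.47, 1.07, 2.27 and −0.23, Tpm1, tropomyosin, by 1.83, 1.42, 2.44 and 0.02, and Itga1, a collagen-binding integrin, by 2.83, 2.03, 3.09 and −0.11.

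Endothelial genes, 15 of 18 measured, had medians of 0.51, 0.51, 0.76 and 0.05, with 10 higher and 0 lower without replicate 4, and medians of −0.53, −0.04, −0.19 and 0.22 with arrays centred on ribosomal protein genes. In normal replicate 1, 10 of the 15 lay under the floor guide, which limits these medians. Cldn5, the endothelial claudin, differed by 1.76, 1.52, 2.31 and −0.10, and Emcn, endomucin, by 1.86, 1.15, 1.72 and −0.16.

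Macrophage genes were higher in replicates 1 to 3 as a list. The macrophage list, 25 of 25 measured, had medians of 1.89, 1.10, 1.78 and −0.05, with 20 higher and 2 lower without replicate 4. Between replicates 3 and 1 its median difference was −0.04, with 0 of the 25 genes at least 2-fold either way. C1qa, a complement component made by macrophages, read 7.16, 6.99, 6.90 and 6.89 in the normal arrays and 9.90, 9.04, 9.89 and 7.07 in the under-developed arrays. Mrc1, the mannose receptor of resident macrophages, differed by 1.44, 0.63, 1.21 and −0.04, and Fcer1g, the Fc receptor gamma chain, by 3.15, 2.30, 3.44 and 0.02. The next 3 genes were named for their differences between under-developed arrays and were highest in replicate 3. Mmp12, macrophage elastase, read 4.98, 4.64, 5.06 and 5.11 in the normal arrays and 6.84, 5.14, 9.73 and 4.89 in the under-developed arrays. Replicates 2 and 4 and the normal arrays lay under the floor guide, and replicate 3 stood far above replicate 1. Gpnmb differed by 3.05, 1.43, 4.32 and −0.07, and Lpl, lipoprotein lipase, by 2.13, 1.13, 3.59 and −0.32.

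Other immune genes, named by the same rule, were high in replicate 1. Cxcl13, the chemokine that draws B cells, read 5.40, 5.82, 5.46 and 4.88 in the normal arrays and 11.66, 8.45, 8.93 and 4.86 in the under-developed arrays, so that replicate 3 minus replicate 1 was −2.74. Cd53, a leukocyte tetraspanin, differed by 3.25, 1.06, 2.15 and −0.14. Clec7a, the beta-glucan receptor of myeloid cells, differed by 2.71, 0.50, 2.67 and −0.03, about equal in replicates 1 and 3. It lay under the floor guide in replicates 2 and 4 and in the normal arrays. Of 14 immunoglobulin genes, a set chosen after values were seen, 2 (14.3%) were at least 2-fold higher in replicate 1, where 15.5% of all genes were, and 0 in replicates 2, 3 and 4, and 1 was at least 2-fold lower in replicate 3. Ighl14, of the heavy chain, read 5.88, 5.48, 5.46 and 5.78 in the normal arrays and 9.79, 5.88, 6.25 and 5.76 in the under-developed arrays, and Igkv2-112l2, of the kappa light chain, 4.46, 4.06, 4.08 and 3.97 against 7.56, 4.18, 4.39 and 4.39. Both stood high in replicate 1 alone. Immunoglobulin genes are a family of near copies, so probe sets may not tell members apart. Jchain, which joins immunoglobulin chains, differed by 0.82, −1.0, −1.86 and −0.20. The T and B cell list, 18 of 22 measured, had medians of 0.28, 0.07, 0.47 and 0.03, with 6 higher and 2 lower without replicate 4. Mast cell genes (14 of 16 measured; 0.10, −0.09, 0.16 and 0.09; 1 higher and 1 lower) and neutrophil genes (14 of 14; −0.03, 0.10, 0.11 and 0.11; 1 higher and 3 lower) lay near the median of all genes. The neutrophil alarmin S100a8 read 3.60 to 3.77 in the normal arrays and 3.31 to 3.63 in the under-developed arrays, under the floor guide in all; 13 of the 14 neutrophil and 11 of the 14 mast cell genes lay under it in the under-developed arrays.

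**Figure D4:**
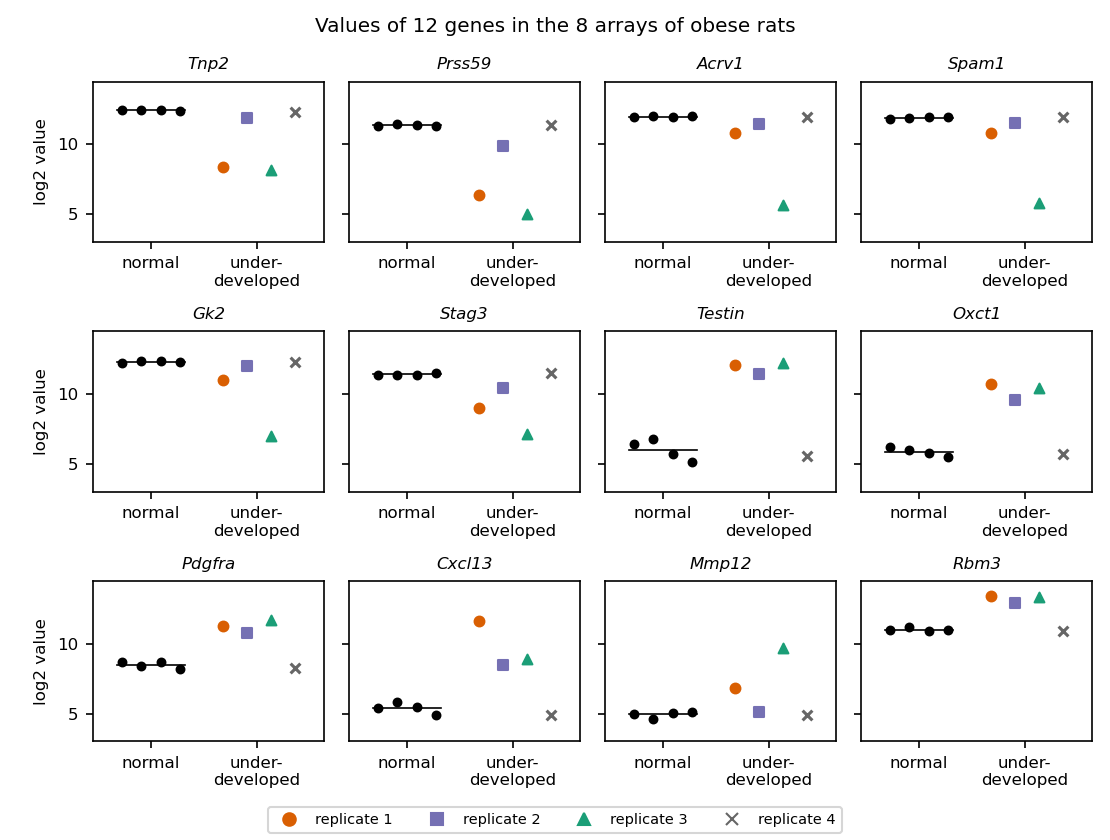
Log2 values of 12 genes in the 4 normal obese arrays (black points, line at their mean) and in under-developed replicates 1 to 4 (coloured symbols). Tnp2 and Prss59 are low in replicates 1 and 3, Acrv1, Spam1 and Gk2 are far lower in replicate 3, and Testin, Oxct1, Pdgfra and Rbm3 are high in replicates 1 to 3, with Cxcl13 highest in replicate 1 and Mmp12 in replicate 3.

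Stress lists differed from one another. The list of heat and cold response genes, 14 of 18 measured, had medians of −0.04, 0.02, 0.21 and −0.04, with 6 higher and 5 lower without replicate 4. Rbm3, an RNA-binding protein induced by cold, read 10.96, 11.24, 10.92 and 10.98 in the normal arrays and 13.42, 12.90, 13.39 and 10.92 in the under-developed arrays; it is X-linked. The mitochondrial chaperonins Hspe1 (2.12, 1.40, 2.02 and −0.10) and Hspd1 (1.83, 0.77, 1.47 and −0.06) were higher, and Hspa4l, a chaperone abundant in germ cells (−1.63, −0.65, −2.45 and 0.03), and Dnajb1 (−1.20, −0.35, −1.71 and −0.11) were lower. Hypoxia genes, 19 of 21 measured, had medians of 1.41, 0.67, 1.33 and −0.07, with 16 higher and 1 lower. Vegfa, the vascular growth factor, differed by 1.41, 1.18, 1.85 and 0.02, and the oxygen sensors Egln1 and Egln3 by 2.30, 1.18, 2.16 and −0.01 and by 2.49, 1.33, 1.54 and 0.29. Egln3 lay under the floor guide in the normal arrays and in replicates 2 and 4. Only its differences in replicates 1 and 3 are read, as lower limits. Antioxidant genes, 26 of 26 measured, had medians of 1.29, 0.79, 1.34 and −0.16, with 17 higher and 4 lower. Gstp1, a glutathione transferase, read 6.95, 7.09, 6.94 and 6.89 against 10.09, 9.08, 9.73 and 6.66, and Sod3, extracellular superoxide dismutase, differed by 2.94, 2.33, 3.13 and −0.36.

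Immediate early genes, 18 of 20 measured, had medians of 0.85, 0.56, 1.14 and −0.07, with 12 higher and 3 lower without replicate 4, and apoptosis and p53 target genes, 18 of 26 measured, 0.92, 0.29, 0.71 and −0.07, with 10 higher and 2 lower. With arrays centred on ribosomal protein genes, the fitted medians of these lists were −0.04 and −0.08. Junb, a stress-responsive transcription factor, differed by 1.94, 1.71, 2.55 and −0.01, Apaf1, which forms the apoptosome, by 1.67, 0.99, 1.46 and −0.10, and Xiap, an inhibitor of caspases on the X chromosome, by 2.61, 1.69, 2.50 and −0.26. Apaf1 lay under the floor guide in the normal arrays, so its differences in replicates 1 to 3 are lower limits. The cytosolic ribosomal protein list itself, 27 of 37 measured, had medians of 1.16, 0.44, 0.93 and −0.19, with 22 higher and 1 lower. X-linked Rpl10 differed by 3.03, 1.88, 2.68 and −0.09.

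Scale limits how these directions can be read. Centring on ribosomal protein genes shifted the median of all genes by −1.04, −0.54, −0.95 and 0.17, and without replicate 4 it gave 1925 genes higher and 13350 lower in place of 5381 and 4790. It shifts all genes of an array alike, so it leaves the gap between any 2 lists as it is and can change only their signs. The medians of the 5 meiotic, spermatid and chromatin lists were below 0 in replicates 1 to 3 under both scales, and the mature Sertoli, Leydig, myoid, matrix, macrophage, phagocytosis, adhesion, hypoxia and antioxidant medians stayed above 0 in replicates 1 to 3 under both.

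Markers of other tissue that a dissected sample could hold had medians near that of all genes. The epididymis epithelium list, 14 of 20 measured, had medians of −0.11, −0.02, 0.02 and 0.11, with 1 higher and 3 lower without replicate 4; the rete testis and efferent duct list, 15 of 16 measured, −0.12, −0.04, 0.07 and −0.00, with 3 higher and 4 lower; the adipocyte list, 15 of 15 measured, −0.22, 0.01, −0.00 and −0.04, with 3 higher and 6 lower; and 6 of 11 red blood cell genes −0.12, −0.01, −0.03 and 0.03. The list means of the log2 values were 5.57 to 5.62 in normal and 5.29 to 5.69 in under-developed arrays for epididymis, 6.52 to 6.61 and 6.26 to 6.56 for rete testis, and 6.72 to 6.80 and 6.61 to 6.91 for adipocytes. In the under-developed arrays and normal replicate 1, 10 to 12 of the 14 epididymis genes lay under the floor guide, as did 7 to 11 of the 15 rete testis, 6 to 9 of the 15 adipocyte and 5 to 6 of the 6 red blood cell genes, which limits all of these medians. Adipoq, the adipocyte hormone adiponectin, lay under it in all 8 arrays. Muc1, a surface mucin, differed by −1.74, −1.18, −2.04 and 0.02. Lipe, hormone-sensitive lipase, which germ cells also express, read 9.75, 9.81, 9.67 and 9.77 in the normal arrays and 6.58, 7.87, 7.46 and 9.69 in the under-developed arrays, lowest in replicate 1. Lpl, also on the adipocyte list, went the other way, by 2.13, 1.13, 3.59 and −0.32. Of the 15 adipocyte genes, 2, 2 and 3 were at least 2-fold higher in replicates 1 to 3, and as many at least 2-fold lower. Over all genes these shares were 15.5%, 7.56% and 19.2% higher, and 15.6%, 6.18% and 16.8% lower.

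By the count of named genes at least 2-fold from normal, replicate 4 was as close to the normal mean as single normal arrays were. By correlation over all named genes it stood slightly apart. Its correlations with the normal obese arrays were 0.9937 to 0.9951, and those between normal obese arrays 0.9954 to 0.9962. Against the normal mean, 8 genes differed at least 2-fold (7 higher and 1 lower), while each normal array, against the mean of the other 3, had between 4 and 10 such genes. Among probe sets with no single gene symbol it had 390, and the normal arrays 144 to 263. Named among the 8 were P4ha3, a collagen hydroxylase subunit (2.02), Vom1r68 (1.30), Or2n1g (1.15), Or2n1n (1.03) and Serpina3m (1.02), which were higher, and Oog1 (−1.45), which was lower; all of these except P4ha3 lay under the floor guide in all 8 arrays. P4ha3 read 7.77, 5.65, 5.41 and 5.48 in the normal arrays and 5.06, 5.64, 5.83 and 8.10 in the under-developed arrays, so normal replicate 1 and under-developed replicate 4 were both high. Among genes of spermatids, Prss59 in replicate 4 lay within 0.03 of the normal mean, and among somatic genes Testin lay 0.49 below it.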

How the data were processed

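RNA of whole testes, extracted with Trizol and biotin-labelled with the Affymetrix WT PLUS kit per the labels' protocols, was measured on 1 array per sample. The authors deposited 1 log2 value per probe set and array, made by RMA according to the labels (per the submitters' processing notes); its settings and the genome build are not given in the sources used here. RMA normalizes between arrays and assumes that most genes are alike. Of 36685 probe sets, 18511 carried 1 gene symbol, 575 several and 17599 none, and 18394 matched RefSeq's GRCr8 gene table. For 291 genes with several probe sets the one with the highest mean was kept, leaving 18166 genes, unfiltered. The test was limma 3.58.1 (R 4.3.3; lmFit and eBayes) over all 10 arrays with a mean per group, two-sided, with Benjamini-Hochberg adjustment and a threshold of 0.05, run also on simulated data. Those data gave every group the spread of the normal obese arrays and shifted all under-developed arrays alike. They therefore do not check the test at the wide spread of the real under-developed arrays. Tables and plots used Python 3.11.15, pandas 2.3.3, numpy 2.4.6, scipy 1.17.1 and matplotlib 3.10.9.

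The 29 gene lists and the members were chosen with earlier results of these data known. Genes were named by rule: the smallest p values, the largest and smallest medians of the 4 differences, the largest differences between under-developed arrays, all genes at least 2-fold from normal in replicate 4, the first 3 and 4 most changed members of each list, and all measured pairs; the text gives a selection. Members of lists were counted without set tests. Promoters came from RefSeq (14503 matched genes). Alternatives were 3 other scalings, an offset of 50, dim-probe filters at the 25th percentile and the median, means of probe sets, trend and robust moderation, array weights, obese arrays alone, the replicate number as a block, a pooled normal group, and each array left out in turn. The number of arrays limits precision.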

Additional observations from a re-analysis of the deposited data

Results flagged for a closer look

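In groups of 4 arrays, a highest or lowest array was marked where its gap to the nearest other exceeded Dixon's critical share of the group's range, a limit that chance passes in about 1 in 20 groups. Many of the genes, among them Ighl14, Igkv2-112l2, Testin and P4ha3, were named by rules on these same values. That rate does not hold for them. Of 274 groups looked at, 10 were marked, 5 under-developed and 5 normal obese. Values are log2 differences from the normal obese mean. Under-developed replicate 4 stood below the other 3 arrays of its group for Testin (−0.49), the Sertoli cell protein, and for Clu (0.08), clusterin. Under-developed replicate 1 stood above the others for the immunoglobulin genes Ighl14 (4.14) and Igkv2-112l2 (3.42) and below them for the median of the neutrophil list (−0.03). Among normal obese arrays, replicate 4 stood apart for the median of the Leydig progenitor and immature list (−0.12), replicate 3 for the chaperone gene Hspa4l (0.08), and replicate 1 for Tbpl1 (−0.08), Muc1 (0.11) and the collagen hydroxylase gene P4ha3 (1.69). Outside the named genes, 390 probe sets with no single gene symbol differed at least 2-fold from normal in under-developed replicate 4, against 144 to 263 in each normal obese array set against the other 3.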

How the results depend on the processing

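With all arrays limma called 0 genes in the reported fit and in all alternatives except array weights (9862 genes, with under-developed replicate 4 given the lowest weight, 0.06193) and a pooled normal group of obese and lean arrays (7923); leaving out each array in turn gave 0 to 10171, the highest without under-developed replicate 4. Same-numbered arrays deviated from their group means with correlations of 0.0771, 0.00692, 0.0237 and 0.26, and replicate 4 alone correlated best with its own number. The under-developed arrays differ widely among themselves, so these correlations cannot tell whether same-numbered samples shared a rat. The limma fit with a replicate block also called 0 genes, with 6725 at an unadjusted p under 0.05. The rescalings combined with leaving out replicate 4 were chosen after seeing the data. With ribosomal protein centring, calls without replicate 4 were 1925 higher and 13350 lower; at least 2-fold higher and lower were 690 and 9184 genes in replicate 1, 495 and 3966 in replicate 2, 1098 and 6737 in replicate 3, and 29 higher in replicate 4. Of 29 list medians, 16 moved by under 1 SD in each alternative run. This SD is that of the list median over the 4 under-developed arrays, which replicate 4 widens where it stands apart. It was 1.84 for round and 1.92 for elongating spermatid genes, so those lists could hardly be marked as moved. The ribosomal protein list went from 0.62 to 0.03 with ribosomal protein centring and counted as unmoved, at an SD of 0.6. Ribosomal protein centring moved the fitted median of the spermatogonial list from 0.06 to −0.53, immature Sertoli to −0.60, endothelial to −0.10, T and B cell to −0.34, mast cell to −0.49, neutrophil to −0.48, epididymis to −0.51, rete testis to −0.64, adipocyte to −0.63, red blood cell to −0.65, heat and cold to −0.59, immediate early to −0.04 and apoptosis to −0.08. Median centring moved neutrophil to 0.03 and red blood cell to −0.14, quantile normalization moved epididymis to −0.02 and heat and cold to 0.15, and red blood cell was −0.08 to 0.02 as arrays were left out. Of 108 genes named, 102 kept the direction of their fitted difference in each alternative that gave one, and 95 passed without replicate 4. The exceptions were Or2n1g (−0.09), Serpina3m (−0.46), Vom1r68 (−0.35), Gk (−0.07) and P4ha3 (−0.51) with ribosomal protein centring, Jchain (0.10), P4ha3 (−0.69), Serpina3m (−0.18) and Vom1r68 (−0.16) with array weights, and P4ha3 with median centring (−0.00). As arrays were left out, P4ha3 ran from −0.57 to 0.64, Serpina3m from −0.17 to 0.27 and Vom1r68 from −0.12 to 0.43. The cause was not tested. The number of arrays limits precision, as does signal near the floor of the array for lists with low values.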
